A study of Mus musculus with 18 samples.

Results

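miR-143, miR-145, miR-199 and miR-214 are known as miRNAs of mesenchymal cells, and their levels were followed here while embryonic stem cell (ESC) lines were made from mouse blastocysts. The members were taken by name: mmu-miR-143-3p, mmu-miR-145a-5p, mmu-miR-145a-3p, mmu-miR-199a-3p, mmu-miR-199b-3p, mmu-miR-199a-5p and mmu-miR-214-3p, written below without the species prefix, which are 7 of the 1390 mature miRNAs in the table. miR-199a-3p and miR-199b-3p held identical values in all 18 libraries and are counted once, as miR-199a/b-3p, which leaves 6 distinct members. Of these 6, miR-143-3p, miR-145a-5p, miR-145a-3p and miR-199a/b-3p passed the filter on low values and were tested. miR-199a-5p and miR-214-3p did not pass it.

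As background, miR-143 and miR-145 are processed from neighbouring hairpins and are best known from smooth muscle and fibroblasts, where they favour the contractile, differentiated state. In human ESCs, miR-145 is known to repress the pluripotency factors OCT4, SOX2 and KLF4. miR-199a and miR-214 are made together from the noncoding transcript Dnm3os, which is known from skeletal and other mesenchymal precursors.

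The cells came from blastocysts of NMRI mice. The groups were inner cell mass (ICM, day 0) freshly isolated by immunosurgery, ICM outgrowths at 5 time points (day 0.5, day 1, day 2, day 3 and day 5), and ESC lines in 3 groups with the codes P2, P4 and P15, with 2 libraries in each of the 9 groups. All cultured groups shared a gelatin surface and R2i medium with leukemia inhibitory factor, in which PD0325901 inhibits MEK and SB431542 inhibits the activin and TGF-beta type I receptors; no feeder layer is named in the labels. The titles give the libraries coded P2, P4 and P15 as passages 4, 15 and 2, so the codes serve as names and no order of passages was read from them. Whether 2 replicates came from different embryos or cultures is not stated, so p-values measure the spread between these libraries, which may be technical.

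Values are normalized counts that the authors deposited as whole numbers. Library totals were 602238 to 1265117, and ESC totals were higher than ICM totals. In the 10 libraries of days 0 to 3, 1 read was worth 1.73 to 5.44 normalized counts, and these libraries held an estimated 111000 to 370000 reads. The 8 libraries of day 5 and of the ESC groups would hold at least 2320000 reads if their lowest listed value also stands for 5 reads. In each of the 10 libraries of days 0 to 3 the lowest listed value was taken as 5 reads. The values below 1000 then lay on the even spacing that this gives. On this reading a 0 there stands for less than 8.66 to 27.2 normalized counts depending on the library. Depth moved with stage, and each test was therefore repeated at a common floor, with every value below 27.2 raised to 27.2.

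The mesenchymal name was checked against the libraries. The 6 distinct members together held 0.161% to 0.257% of all normalized counts in ESC libraries, and 0.123% and 0.201% in the ICM libraries. The 15 listed pluripotency miRNAs of the miR-290-295 and miR-302/367 clusters held 8.40% to 14.3% in ESC libraries, and 14.3% and 16.4% in ICM. These are bulk RNA samples, in which more cells of a type and more miRNA per cell cannot be told apart.

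The mature sequences show why some members cannot be separated and which miRNAs share a seed, the stretch that pairs with targets. They are RefSeq entries on GRCm38.p6, written 5′ to 3′ with the seed, bases 2 to 8, in capitals.
miR-199a-3p: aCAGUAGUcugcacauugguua
miR-199b-3p: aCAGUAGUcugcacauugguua
miR-199a-5p: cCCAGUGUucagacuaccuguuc
miR-214-3p: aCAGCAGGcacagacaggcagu
miR-761: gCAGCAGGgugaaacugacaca
The miR-199a-3p and miR-199b-3p sequences are the same, and no count could assign a read to one of them. The 2 arms of miR-199a have different seeds. miR-214-3p shares its seed with miR-761, the only other miRNA with that seed among the RefSeq entries used, and miR-761 is described beside it below.

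The hairpins that carry these arms show that miR-199a/b-3p can come from 3 loci, here with the members' mature arms in capitals.
mir-199a-2: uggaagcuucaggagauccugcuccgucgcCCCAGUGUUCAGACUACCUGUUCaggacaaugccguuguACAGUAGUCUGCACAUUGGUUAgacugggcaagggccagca
mir-199a-1: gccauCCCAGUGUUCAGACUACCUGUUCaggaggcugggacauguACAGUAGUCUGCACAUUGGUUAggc
mir-199b: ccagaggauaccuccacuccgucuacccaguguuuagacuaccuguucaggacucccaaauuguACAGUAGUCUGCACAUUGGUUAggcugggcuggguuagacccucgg
On GRCm38, mir-199a-2 lies at chr1:162217814-162217923 on the plus strand, in an exon of Dnm3os and an intron of Dnm3 on the opposite strand. mir-214 lies at chr1:162223368-162223477 in the same transcript, 5444 bases further on. mir-199a-1 lies at chr9:21496495-21496564 on the minus strand, opposite an intron of Dnm2, and mir-199b at chr2:32318460-32318569 on the plus strand, opposite an intron of Dnm1.

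The hairpins of miR-143 and miR-145a are annotated 1301 bases apart on the same strand of a further chromosome, and their sequences are not shown here.

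miR-143-3p was the most abundant distinct member in every ESC library, and it followed a course of fall and rise. In time order it was listed at 381 and 419 normalized counts in ICM, 485 and 736 on day 0.5, 332 and 437 on day 1, 165 and 143 on day 2, 250 and 191 on day 3, and 619 and 680 on day 5. The ESC libraries held 1783 and 1628 in P2, 2375 and 1636 in P4, and 1784 and 2009 in P15. The lowest ESC library stood above the highest library of any earlier stage, and the 4 libraries of days 2 and 3 stood below all the others. How many of all miRNAs separated in these ways was not counted. In estimated reads the values of days 0 to 3 rest on 41 to 280 reads, with a Poisson error of 15.6% to 5.98% of the value.

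**Figure D1:**
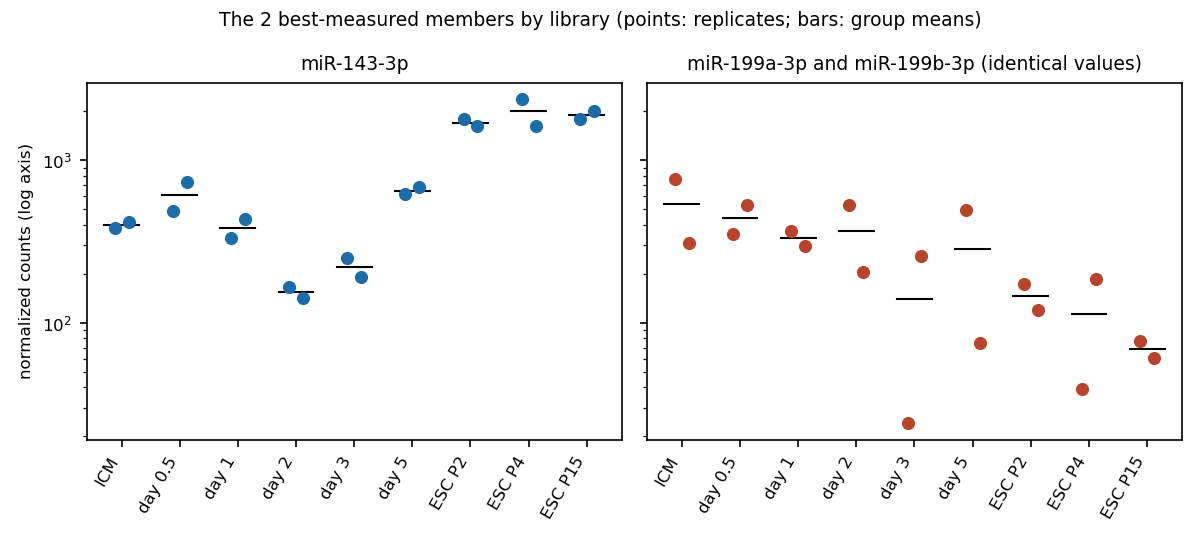
Normalized counts of miR-143-3p (left) and of miR-199a/b-3p (right) in each library, on a log axis, by stage; points are the 2 replicates and black bars their mean. miR-143-3p is lowest on days 2 and 3 (143 to 250) and highest in ESCs (1628 to 2375), and the replicates of miR-199a/b-3p lie far apart in several groups (24 and 256 on day 3).

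The first comparison set the end of derivation against its start. miR-143-3p averaged 1869 ± 284 normalized counts in ESCs (SD, n = 6) and 400 ± 26.9 in ICM (SD, n = 2), a log2 change of 2.21 (SE 0.20, limma adjusted p = 2.44e-06). Higher calls were made for 31.6% of the 811 tested miRNAs in ESCs against ICM and lower calls for 23.7%, so a call in this comparison was common. Against all outgrowths the log2 change in ESCs was 2.42 (SE 0.12, limma adjusted p = 2.56e-08, with 31.9% of tested miRNAs called higher), and no ESC library overlapped an outgrowth library. These comparisons share the ESC libraries and are not separate evidence. As a share of all normalized counts, miR-143-3p held 0.186 ± 0.0289% in ESCs and 0.0651 ± 0.00261% in ICM, a ratio of 2.85 in place of 4.67 for the deposited values.

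The comparison with day 5 sets libraries of like depth against each other. miR-143-3p averaged 1869 ± 284 in ESCs and 649.5 ± 43.1 on day 5 (SD, n = 6 and 2), a log2 change of 1.51 (SE 0.20, limma adjusted p = 3.42e-04). Here 5.92% of the tested miRNAs were called higher in ESCs. The change was 1.06 (SE 0.15, limma adjusted p = 4.51e-04) once every library was scaled to 1 total. Of the 4 tested distinct members, miR-143-3p alone was called in ESCs against day 5 on the deposited values.

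Among the steps between time points, miR-143-3p passed the test at 2 of the 5, in opposite directions. On day 2 it averaged 154 ± 15.6, against 384.5 ± 74.2 on day 1 (SD, n = 2 each), a log2 change of -1.305 (SE 0.24, limma adjusted p = 0.00509), in a step that called 6.78% of tested miRNAs lower. Both days belong to the shallow libraries. Without day 1 replicate 2 the change was -1.11 and the call was lost (limma adjusted p = 0.0515). On day 5 it averaged 649.5 ± 43.1, against 220.5 ± 41.7 on day 3 (SD, n = 2 each), a log2 change of 1.57 (SE 0.24, limma adjusted p = 9.10e-04), in a step that called 12.2% higher. Depth also rose between day 3 and day 5. At the common floor the change was again 1.57 (limma adjusted p = 0.00108). All values of miR-143-3p lay above the floor, so this fit cannot show whether depth played a part. With the libraries of days 3 and 5 fitted alone the call was lost (limma adjusted p = 0.0564). The other steps of miR-143-3p were not called, with log2 changes of 0.58 on day 0.5 against ICM, -0.65 on day 1 against day 0.5 and 0.51 on day 3 against day 2 (limma adjusted p = 0.176, 0.103 and 0.377). These steps called 11.3%, 15.2% and 4.07% of tested miRNAs in either direction. Day 1 against day 0.5 passed without day 0.5 replicate 1 (-0.95, adjusted p = 0.0414) and with libraries scaled to 1 total (-0.62, adjusted p = 0.0460). Outgrowths as a whole were not told from ICM (log2 change -0.21, SE 0.19, limma adjusted p = 0.384), but were called lower after that scaling (-0.48, adjusted p = 0.0230).

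Among the ESC groups miR-143-3p averaged 2005.5 ± 522.6 in P4, 1896.5 ± 159.1 in P15 and 1705.5 ± 109.6 in P2 (SD, n = 2 each). No difference among them passed the test (limma F test, adjusted p = 0.942, with 27.4% of tested miRNAs called), and neighbours in this order differed by less than the spread between the P4 replicates. By rank among all miRNAs of a library, miR-143-3p stood between 49 and 65 in ESC libraries, and at 128 and 122 in the ICM libraries. The partner arm miR-143-5p was listed at 1 in P4 replicate 2 and at 0 in the other 17 libraries.

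miR-145a-5p, the arm of miR-145 usually loaded into Argonaute, was listed at 0 in all 10 libraries of days 0 to 3. It was listed at 65 and 37 normalized counts on day 5, and in ESCs at 42 and 40 in P2, 56 and 56 in P4, and 47 and 51 in P15. The lowest of these 8 values, 37, lay above 27.2, the highest level that a 0 in the earlier libraries stays below. On the deposited values the ESC mean was therefore at least 1.79-fold higher than in ICM, with that level taken for ICM. A bound by share of the library was not worked out. In ICM replicate 1 a listed value of 27, or 5 estimated reads, was 0.00448% of the library, and a 0 stands for less. miR-145a-5p held 0.00395% to 0.00618% in ESC libraries.

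At the common floor the log2 change of miR-145a-5p in ESCs against ICM was 0.83 (SE 0.17, limma adjusted p = 9.45e-04), where 35.9% of the 602 miRNAs tested at the floor were called higher. On day 5 against day 3 it was 0.85 (SE 0.20, limma adjusted p = 0.0136, with 9.63% called higher), and the mean of 51 ± 19.8 on day 5 was at least 2.12-fold higher than the day 3 libraries allow. The same calls were also made on the deposited values, whose fitted fold changes are not given because all libraries of the lower groups are listed at 0. In both fits the libraries of days 0 to 3 share 1 value, so the p-values do not measure the spread between them. The ESC mean of 48.7 ± 6.86 and the day 5 mean of 51 ± 19.8 (SD, n = 6 and 2) were not told apart, with a log2 change of -0.02 (SE 0.40, limma adjusted p = 1). Against all outgrowths, the ESC libraries overlapped those of day 5, and the log2 change at the floor was 0.66 (limma adjusted p = 1.86e-04, with 36% called higher). A call in outgrowths against ICM on the deposited values (limma adjusted p = 0.0401, with 16.3% called higher) rested on day 5 alone: over days 0.5 to 3 and ICM all libraries were at 0. It was lost without either ICM replicate (adjusted p = 0.0915 and 0.113), without day 5 replicate 1 (0.0503), without any 1 of the P2 or P4 libraries (0.0516 to 0.0642), and with the replicate block (0.0519).

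miR-143-3p and miR-145a-5p of the same cluster were not in a fixed proportion. In days 0 to 3 the ratio of miR-143-3p to miR-145a-5p has only a lower bound. It was 9.52 and 18.4 on day 5, and 29.2 to 42.5 in the ESC libraries. The bound ran from 8.21 to 56.0 and passed the highest ESC ratio in 2 of the 10 libraries. Over the 18 libraries at the common floor the pair had a Spearman rho of 0.79, a description of points that share their depth classes.

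miR-145a-3p, the partner arm from the same hairpin, was highest in ICM. It was listed at 38 and 43 in ICM and at 36 in day 0.5 replicate 1, which are 7, 14 and 21 estimated reads. It was at 0 in the other 7 libraries of days 0.5 to 3 and in day 5 replicate 1, and at 2 in day 5 replicate 2. In ESCs it was listed at 3 and 3 in P2, 7 and 4 in P4, and 3 and 5 in P15. The 3p arm was thus listed in the ICM libraries, where the 5p arm was at 0. In ICM replicates 1 and 2 it was 1.40 and 2.77 times the level that a 0 stays below. A 5p level not far below that of the 3p arm is therefore possible there. In the 6 ESC libraries the 5p arm was 8 to 15.7 times as high as the 3p arm.

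The mean of miR-145a-3p was 4.17 ± 1.60 in ESCs and 40.5 ± 3.54 in ICM (SD, n = 6 and 2), a log2 change of -3.05 (SE 1.02, limma adjusted p = 0.0246), or -0.57 at the common floor (limma adjusted p = 9.14e-05, with 32.2% called lower). In outgrowths against ICM the log2 change was -4.69 (SE 0.97, limma adjusted p = 0.00298), or -0.53 at the floor (limma adjusted p = 2.16e-04); on the deposited values this comparison called 18.6% of tested miRNAs lower and at the floor 26.7%. The call in ESCs was lost without ICM replicate 1 (adjusted p = 0.0712), without ICM replicate 2 (adjusted p = 0.0908) and with array weights (adjusted p = 0.144). With array weights the call in outgrowths was also lost (adjusted p = 0.101). On day 0.5 against ICM the change was -2.77 (SE 1.25, limma adjusted p = 0.211). Raised to the common floor, the values gave -0.37 and passed (limma adjusted p = 0.0309, with 7.64% called lower). Against all outgrowths the change in ESCs was 1.64 (SE 0.64, limma adjusted p = 0.0526) and did not pass; with the floor it was -0.040. On the deposited values it passed with array weights (limma adjusted p = 0.00357). It also passed without day 0.5 replicate 1 or 2, with changes of 2.16 and 1.12. The replicates of day 0.5 differed most, by 5.21 on the log2 scale, and without either the SE fell to 0.29. The size of these changes against outgrowths on the deposited values rests on listed zeros of the shallow libraries, which allow more than the ESC values. At 7 reads the Poisson error is 37.8% of the value.

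**Figure D2:**
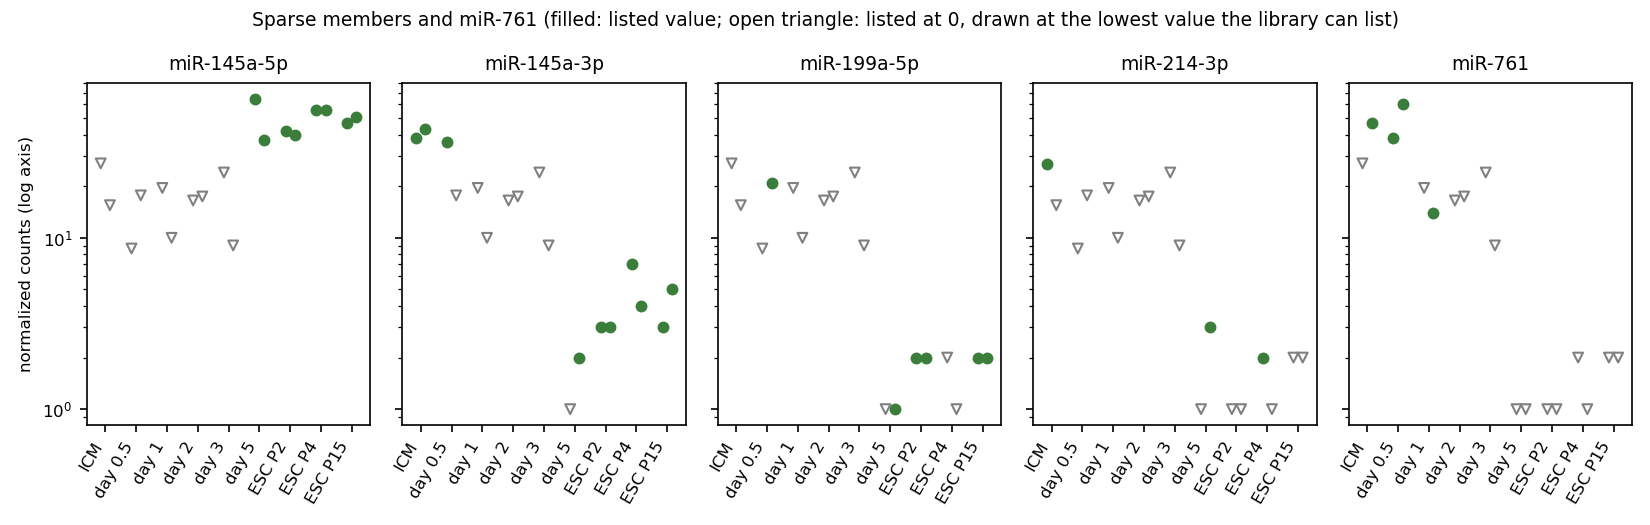
Normalized counts of miR-145a-5p, miR-145a-3p, miR-199a-5p, miR-214-3p and miR-761 in each library on a log axis; filled points are listed values and open triangles are libraries listed at 0, drawn at the lowest value that library can list. miR-145a-5p is listed from day 5 on (37 to 65), miR-145a-3p is highest in ICM (38 and 43), and miR-761 is listed from ICM to day 1 and at 0 afterwards.

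miR-199a/b-3p was the most abundant distinct member in ICM replicate 1, and its replicates lay far apart. Its values were 767 and 310 in ICM, 353 and 527 on day 0.5, 367 and 296 on day 1, 532 and 206 on day 2, 24 and 256 on day 3, and 496 and 75 on day 5. In ESCs they were 174 and 119 in P2, 39 and 186 in P4, and 77 and 61 in P15. All 6 ESC libraries stood below both ICM libraries, but they overlapped the outgrowths of days 3 and 5. The share of all miRNAs that separated from ICM in this way was not counted. The value of 24 in day 3 replicate 1 is 5 estimated reads, the least that library lists.

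miR-199a/b-3p averaged 109 ± 60.8 normalized counts in ESCs and 538.5 ± 323.1 in ICM (SD, n = 6 and 2). The log2 change of -2.36 (SE 0.93) narrowly missed the threshold on the deposited values (limma adjusted p = 0.0516, with 23.7% called lower). At the common floor it was -2.37 and passed (SE 0.92, limma adjusted p = 0.0388, with 32.2% called lower). Of 9 alternative settings 6 called it lower, with changes from -3.06 to -2.27, and adjusted p ran from 0.0285 to 0.426 over the 9. Leaving out 1 library of day 3 or day 5 let it pass but left the change at -2.36. Those libraries are not in this comparison and only the SE moved (to 0.77 to 0.85), so these passes add no support. Without P4 replicate 2 the change was -2.73, which also passed. Without ICM replicate 1 the change was -1.70 (adjusted p = 0.262). Against all outgrowths the change in ESCs was -1.31 (SE 0.59, limma adjusted p = 0.0852, with 19.9% called lower), and against day 5 it was -1.02 (SE 0.93, limma adjusted p = 0.705, with 9% called lower). The change against outgrowths passed with quantile normalization (-1.41, adjusted p = 0.0407), and without day 3 replicate 1 (adjusted p = 0.0200), day 5 replicate 2 (0.0392) or P4 replicate 2 (0.0487). No step between time points was called for it, and no difference among ESC groups (limma F test, adjusted p = 0.917).

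The spread between replicates set miR-199a/b-3p apart from miR-143-3p. Over the 9 groups the median absolute difference between replicates was 1.304 on the log2 scale for miR-199a/b-3p, and it exceeded the median difference of 100% of the 119 miRNAs within a factor of 2 of its mean level. Those 119 had a median of 0.29. For miR-143-3p the difference was 0.21, against 0.23 for 65 miRNAs of like level. The widest gaps of miR-199a/b-3p were on day 3 (3.36), day 5 (2.71) and in P4 (2.22). In those groups the replicates of miR-143-3p differed by 0.39, 0.14 and 0.54.

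**Figure D3:**
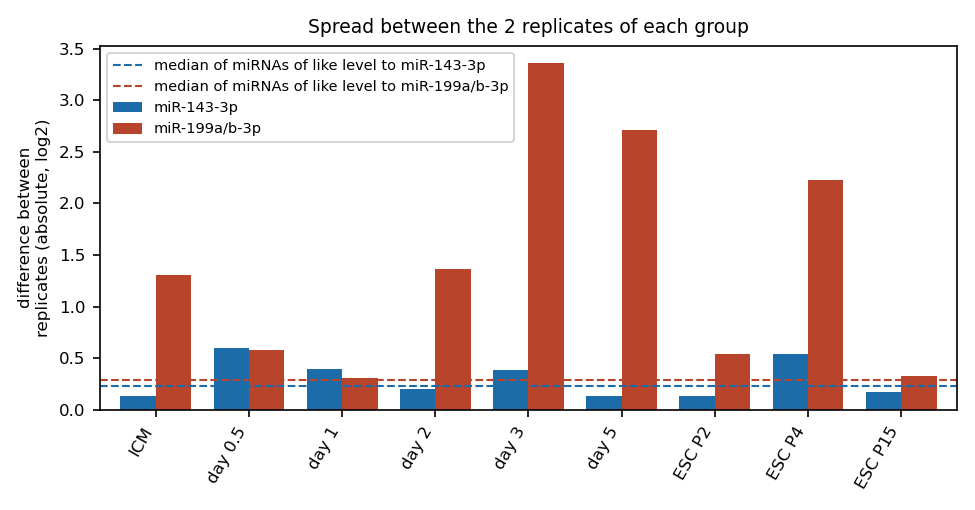
Absolute log2 difference between the 2 replicates of each group for miR-143-3p and miR-199a/b-3p (bars), with dashed lines at the median difference of miRNAs of like mean level. miR-199a/b-3p exceeds its line of 0.29 in all 9 groups and reaches 3.36 on day 3, while miR-143-3p stays at 0.60 or below.

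The ratio between miR-143-3p and miR-199a/b-3p was higher in ESCs than in most earlier libraries. miR-143-3p was 0.31 to 10.4 times as high as miR-199a/b-3p in the 10 libraries of days 0 to 3, 1.25 and 9.07 times on day 5, and 8.80 to 60.9 times in the 6 ESC libraries. The highest ratio of days 0 to 3, 10.4, was day 3 replicate 1, where miR-199a/b-3p was at its 5-read minimum; miR-143-3p was the higher of the pair in 5 of those 10 libraries, and their median ratio was 1.13. By share of all normalized counts, miR-199a/b-3p held 0.0120 ± 0.00830% in ESCs and 0.0884 ± 0.0550% in ICM.

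**Figure D4:**
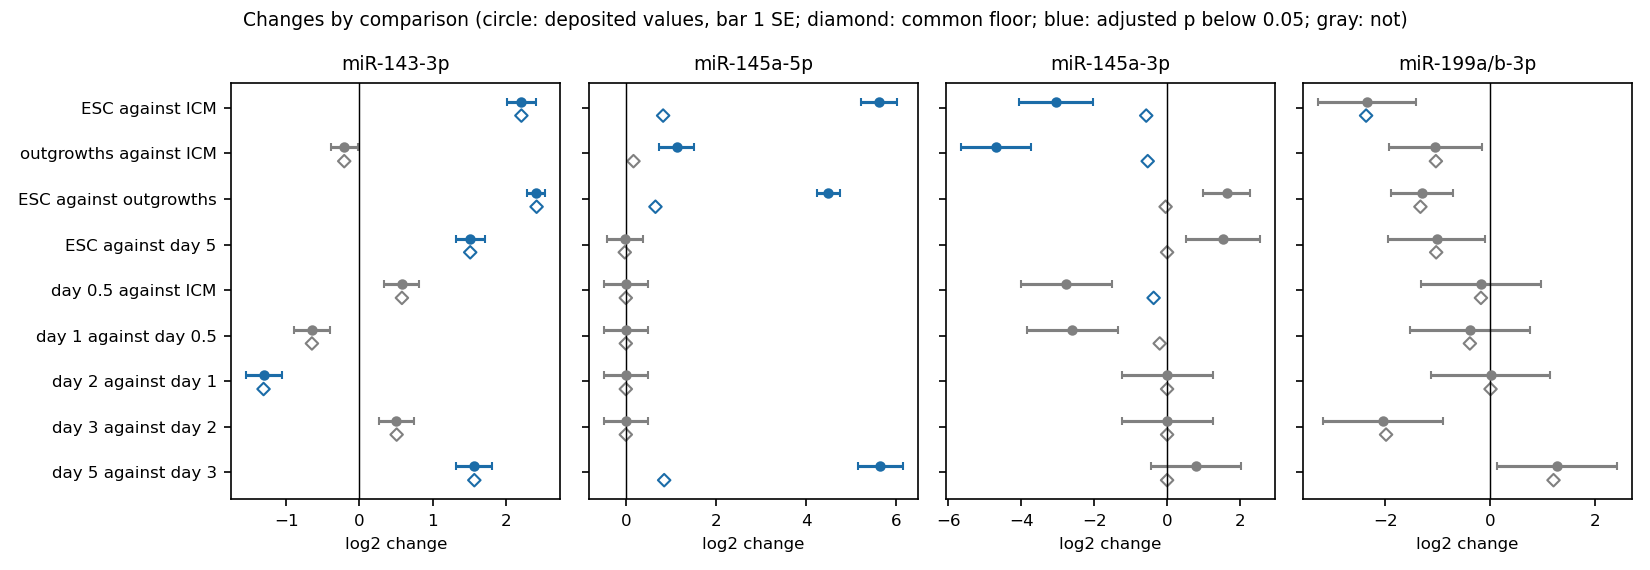
Log2 changes of the 4 tested distinct members in each comparison; circles are the fit on deposited values with bars of 1 SE, diamonds the fit at the common floor, and blue marks an adjusted p below 0.05. miR-143-3p gives the same change by both fits (2.21 and 2.21 in ESCs against ICM), because all its values lie above the floor. The changes of miR-145a-5p and miR-145a-3p in that comparison shrink at the floor (to 0.83 and -0.57).

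The 5p arm of miR-199a was near the limit of listing. miR-199a-5p was listed at 21 in day 0.5 replicate 2, which is 6 estimated reads, at 1 in day 5 replicate 2, and at 2 in both P2 and both P15 libraries. It was at 0 in the other 12 libraries. Where both arms were listed, the 3p arm was 25.1 to 87 times as high as the 5p arm. miR-199b-5p was listed at 2 in day 5 replicate 1 and at 0 elsewhere.

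miR-214-3p, which shares the Dnm3os transcript with mir-199a-2, was listed at 27 in ICM replicate 1, which is 5 estimated reads, at 3 in day 5 replicate 2 and at 2 in P4 replicate 1. The other 15 libraries listed it at 0. With so few reads no difference between stages was detectable for it or for miR-199a-5p.

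miR-761, which carries the seed of miR-214-3p and lies at chr4:109017655-109017730 on GRCm38 within an annotated exon of Nrd1, was listed at 47 in ICM replicate 2, at 38 and 60 on day 0.5 and at 14 in day 1 replicate 2. These are 15, 22, 17 and 7 estimated reads. It was at 0 in all 8 libraries of day 5 and ESCs, whose depth lists values of 1 or 2, and its log2 change in ESCs against ICM was -2.79 (SE 1.24, limma adjusted p = 0.0773). The 0 of ICM replicate 1 stands for less than 27.2.

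Other miRNAs common in mesenchymal cells were followed as a list of 30, of which 28 were in the table and 22 were tested. In ESCs against ICM 12 of the 22 rose and 3 fell, beside 31.6% and 23.7% of all tested miRNAs. The median log2 change of the 22 was 1.96 beside 0.01 for all tested miRNAs. At the common floor 10 of 20 rose and 4 fell, beside 35.9% and 32.2%, with a median of 0.44. In ESCs against day 5, at like depth, 4 of 22 rose and 0 fell, beside 5.92% and 9%, and at the floor 7 of 20 rose and 2 fell, beside 17.1% and 14.5% of all miRNAs tested there. The list held 3.10% to 4.17% of all normalized counts in ESC libraries, and 5.53% and 5.82% in ICM libraries.

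The most abundant of the list did not move together. miR-22-3p, a widely expressed miRNA, fell by 0.43 in ESCs against ICM (SE 0.08, limma adjusted p = 9.00e-04). This averages unlike ESC groups, with means of 10828 in P15, 16639.5 in P2 and 22000.5 in P4, beside 21360 in ICM. miR-10b-5p, encoded in a Hox cluster, fell by 2.97 (SE 0.38, limma adjusted p = 4.54e-05). miR-27b-3p, known from vascular and muscle cells, rose by 3.16 (SE 0.22, limma adjusted p = 3.66e-07), and by 1.53 in ESCs against day 5 (SE 0.22, limma adjusted p = 6.11e-04). On the same scale the change of miR-143-3p in ESCs against day 5 was 1.51.

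Markers of other cell types were looked at beside these results, and their part in them was not tested. Their counts of calls in ESCs against ICM stand beside 31.6% of all tested miRNAs called higher and 23.7% called lower. The 5 striated muscle markers in the table summed to 5 to 79 normalized counts in ESC libraries, and 0 and 65 in ICM libraries, with 2 to 3 of the 5 at 0 in each ESC library. The 2 arms of the endothelial miR-126a summed to 131 and 143 in ICM, 159 and 220 on day 5 and 366 to 1132 in ESCs, and both rose in ESCs against ICM. The 7 epithelial markers summed to 1435 to 4465 in ESCs, and 1702 and 2053 in ICM, with 2 of 7 rising, a share near that of all tested miRNAs. The 7 blood and serum markers summed to 1061 to 2209 in ESCs, and 2252 and 2918 in ICM, with 3 of the 5 tested rising and 1 falling. The 6 neural markers held 0.0427% to 0.0639% of normalized counts in ESCs, and 0.0767% and 0.0877% in ICM, with 2 of the 3 tested rising. Of the 15 pluripotency miRNAs 8 rose and 1 fell in ESCs against ICM, and 6 rose and 2 fell against day 5, where 5.92% of all tested miRNAs were called higher and 9% lower.

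The miRNAs whose course was most like that of each member were found by Spearman's rho over the 18 libraries at the common floor, among 278 miRNAs averaging at least 100. For miR-143-3p they were miR-294-3p of the miR-290-295 cluster (rho 0.85), miR-27b-3p (0.84) and miR-106b-5p (0.84). miR-294-3p averaged 3978 normalized counts in ICM, 1693 on days 2 and 3, 2963.5 on day 5 and 5749 in ESCs, a low on days 2 and 3 like that of miR-143-3p. For miR-145a-5p the nearest were miR-382-5p (0.84), miR-708-5p (0.84) and miR-335-3p (0.83), which were also at 0 in both ICM libraries.

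For miR-199a/b-3p the nearest were miR-337-3p (0.86), miR-1934-5p (0.82) and miR-2861 (0.81). miR-337-3p averaged 514.5 normalized counts in ICM, 658.75 on days 2 and 3, 457 on day 5 and 87.2 in ESCs. For miR-145a-3p they were miR-6236 (0.75), miR-212-5p (0.70) and miR-7211-5p (0.68), over values of which most were at the floor. Among the tested members themselves, miR-143-3p and miR-199a/b-3p had a rho of -0.48, and miR-145a-5p and miR-145a-3p one of -0.38. All these points share the split into shallow and deep libraries.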

How the data were processed

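The small RNA fraction was isolated with a PureLink kit and made into TruSeq Small RNA libraries, per the labels' protocols. The deposited score is a normalized count per miRNA that the authors rounded to whole numbers. The submitters' processing notes name cutadapt, DESeq2 1.30.0 and mm10; the aligner, the counting step and the tool that made the deposited values are not stated. ESC libraries were grouped by the code in their descriptions, other libraries by their titles, and columns were joined by these names.

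Reads were estimated from the even spacing of values below 1000 (within 0.51), found in 10 libraries. The spacing was searched with the lowest listed value of a library taken as 5 reads. Tests used log2(normalized count + 1) for the 811 miRNAs at 10 or more in at least 2 libraries, fitted by limma (version 3.58.1, R version 4.3.3, with a mean-variance trend and robust moderation) over the 9 groups together. Adjusted p-values are Benjamini-Hochberg over all tested miRNAs, with a threshold of 0.05. Adding 1 before the logarithm shrinks the changes of miRNAs with low listed values. A listed 0 of the shallow libraries is fitted as 0 although it only places the value below a level of up to 27.2. This can greatly overstate a change. Such changes are therefore also given at the common floor, where values raised to it show no spread between replicates. The code was tested on simulated data. Counting errors cover counting only. Replicate numbers were not used as pairs.

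The members, lists, comparisons and alternatives were chosen with earlier results of these data known. All members are named. From each list the 3 most abundant members were to be named, and other miRNAs by likeness or shared seed; naming in the other marker lists was left to counts and sums. Mature and hairpin sequences are from RefSeq on GRCm38.p6 and loci from GENCODE vM21. RefSeq entries were used for 3 of the 6 distinct members. No RefSeq entry on the chromosome of miR-143 and miR-145a was used.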

Additional observations from a re-analysis of the deposited data

Results flagged for a closer look

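In 4 sets of values 1 library stood far from the rest, by the gap to its nearest neighbour relative to the range of the set. miR-145a-3p was at 36 in day 0.5 replicate 1, against 0 to 2 in the other 9 outgrowth libraries. miR-199a-5p was at 21 in day 0.5 replicate 2, against 0 or 1 in the others. miR-214-3p was at 3 in day 5 replicate 2 among the outgrowths and at 2 in P4 replicate 1 among the ESC libraries, with all others of each set at 0. 12 sets were examined, chance flags about 1 in 20, and sets made mostly of 0 are flagged by any single listed value.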

How the results depend on the processing

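Alternatives were a pseudocount of 5, the common floor, no filter, a filter of 50 in 4 libraries, scaling to 1 total, quantile normalization, array weights, the groups of a comparison alone, and the replicate block. miR-143-3p kept its direction and its calls in ESCs against ICM (1.495 to 2.21) and against day 5 (1.06 to 1.51) under these 9. Of the 4 tested distinct members, 2 were called in outgrowths against ICM. The count was 1 with the pseudocount of 5, the floor, no filter, quantile normalization, the groups alone and the replicate block. It was also 1 with days 0.5 to 3 only, an alternative chosen after seeing the data. It was 0 with array weights and with the stricter filter, which left miR-145a-3p untested. After scaling to 1 total it was 3, which added miR-143-3p (limma adjusted p = 0.0230). In ESCs against outgrowths the count was 3 in place of 2 with quantile normalization and with array weights. The count became 2 in place of 1 in ESCs against day 5 with array weights, and 1 in place of 0 on day 0.5 against ICM at the floor and on day 1 against day 0.5 after scaling. With the groups alone it was 1 in place of 2 on day 5 against day 3 (miR-143-3p, adjusted p = 0.0564), and 1 in place of 0 in P15 against P2 and among the ESC groups (miR-145a-5p, adjusted p = 0.0166). The ratio of miR-143-3p in ESCs to ICM was 2.85 as a share of the library in place of 4.67. Apart from the miR-145a-5p call in outgrowths the replicate block changed no count; deviations of same-numbered libraries correlated above 0.1 in 3 of 36 pairs of groups (-0.36 to 0.24), and at the common floor in 9 of 36 (-0.60 to 0.49), not in every pair, so the numbers were not taken as pairs.

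Leaving out 1 library at a time, with a group of 1 library assumed to vary like the other groups, the counts ran from 2 to 4 in ESCs against ICM, 1 to 2 in outgrowths against ICM, 2 to 3 in ESCs against outgrowths, 1 to 2 in ESCs against day 5, 0 to 1 on day 0.5 against ICM, 0 to 1 on day 1 against day 0.5, and 0 to 1 on day 2 against day 1. miR-145a-3p passed in ESCs against day 5 without day 0.5 replicate 1 or 2. Its change there stayed at 1.53, as day 0.5 is not in that comparison, and only the SE moved. In ESCs against outgrowths it passed without either, with changes of 2.16 and 1.12. The log2 changes that turned sign belonged to results not called: miR-145a-3p in ESCs against outgrowths (-0.040 at the floor) and on day 5 against day 3 (-0.46 by quantile normalization), miR-145a-5p in ESCs against day 5 (0.12 by quantile normalization), and miR-199a/b-3p on day 2 against day 1 (-0.22 after scaling, -0.0782 by quantile normalization). With 1 library left out, miR-145a-5p ran from -0.42 to 0.37 in ESCs against day 5, and miR-199a/b-3p from -2.38 to 0.33 in ESCs against day 5, -0.83 to 0.48 on day 0.5 against ICM, -0.68 to 0.69 on day 2 against day 1 and -0.40 to 2.96 on day 5 against day 3. The cause of these moves was not tested. Depth limits the members near 5 reads in days 0 to 3 most.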
